A study of Homo sapiens with 12 samples.

Results

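The windows described here surround the annotated starts of 7 genes of the integrated stress response and the endoplasmic reticulum (ER) stress response: ATF4, DDIT3, TRIB3, ASNS, CHAC1, HSPA5 and XBP1. Each window reached 5 kb to either side of a fixed hg19 position and all 7 were used, beside 21916 merged reproducible H3K9ac regions found in the whole series. The starts lay at 39916569 on chromosome 22 (ATF4), 57914300 on chromosome 12 (DDIT3), 361308 on chromosome 20 (TRIB3), 97501854 on chromosome 7 (ASNS), 41245636 on chromosome 15 (CHAC1), 128003666 on chromosome 9 (HSPA5) and 29196560 on chromosome 22 (XBP1). ATF4, TRIB3 and CHAC1 are read on the plus strand and the other 4 on the minus strand.

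The cells were MDA-MB-231, an established human line of triple negative breast adenocarcinoma, and all were serum starved overnight. The treated group then received 500 µM DETA/NO, a slow donor of nitric oxide, for 24 h, and the untreated group received none. Acetylation of lysine 9 of histone H3 (H3K9ac), a mark of active promoters, and its dimethylation (H3K9me2), a mark of silent domains, were mapped by chromatin immunoprecipitation and sequencing in 2 treated and 2 untreated biological replicates each. The line stands for 1 tumour only, and its identity was not checked at marker genes, since no other gene position on hg19 was used. RNA and protein were not measured, so none of the values below is a level of expression.

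In the integrated stress response, several kinases that sense different stresses phosphorylate the translation initiation factor eIF2, which lowers protein synthesis in general and raises the translation of ATF4. ATF4 is a transcription factor that switches on genes of amino acid supply and redox balance, and under lasting stress the factor DDIT3, also called CHOP. ER stress adds further sensors: IRE1, which splices XBP1 messenger RNA into the form that encodes an active transcription factor, and ATF6, and together these raise ER chaperones such as HSPA5, also called BiP. Nitric oxide donors are known in general as agents that can set off both responses.

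The promoter stretches of 4 of the 7 genes are shown because they hold the elements through which these responses are known to act. Each is the 250 bases before the RefSeq start on GRCh38.p14, 5′ to 3′ on the gene's own strand. HSPA5 is chr9:125241344-125241593, minus strand. XBP1 is chr22:28800570-28800819, minus strand. CHAC1 is chr15:40953221-40953470, plus strand. ASNS is chr7:97872409-97872658, minus strand. Capitals mark every match on either strand to the ER stress element (CCAAT and CCACG with 9 free bases between them), the CCAAT box and the amino acid response element core TGATGNAA.
HSPA5: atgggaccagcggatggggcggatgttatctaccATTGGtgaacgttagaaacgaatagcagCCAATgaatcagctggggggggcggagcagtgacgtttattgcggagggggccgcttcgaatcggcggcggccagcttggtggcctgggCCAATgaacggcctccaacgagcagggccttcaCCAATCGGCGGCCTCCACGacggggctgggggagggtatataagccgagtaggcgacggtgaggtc
XBP1: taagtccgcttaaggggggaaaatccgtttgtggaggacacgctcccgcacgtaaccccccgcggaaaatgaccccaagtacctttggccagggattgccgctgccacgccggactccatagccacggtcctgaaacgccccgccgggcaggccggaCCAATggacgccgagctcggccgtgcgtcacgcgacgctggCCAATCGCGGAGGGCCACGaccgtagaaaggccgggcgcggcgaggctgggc
CHAC1: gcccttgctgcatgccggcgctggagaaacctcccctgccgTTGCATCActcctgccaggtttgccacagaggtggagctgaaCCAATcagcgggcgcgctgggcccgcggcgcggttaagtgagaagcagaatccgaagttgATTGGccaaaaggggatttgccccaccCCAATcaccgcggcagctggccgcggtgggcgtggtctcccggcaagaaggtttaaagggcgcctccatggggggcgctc
ASNS: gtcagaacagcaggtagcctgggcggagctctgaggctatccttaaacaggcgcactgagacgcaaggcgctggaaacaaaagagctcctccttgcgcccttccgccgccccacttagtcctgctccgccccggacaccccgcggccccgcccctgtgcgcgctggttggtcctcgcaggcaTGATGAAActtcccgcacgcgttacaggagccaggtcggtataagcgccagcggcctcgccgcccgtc

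HSPA5 and XBP1 each hold 1 full ER stress element, a motif found in 0.0806% of 27305 RefSeq promoter stretches of that length. In HSPA5 the match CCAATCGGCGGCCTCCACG ran from 66 to 48 bases before the RefSeq start, and in XBP1 the match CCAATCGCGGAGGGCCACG ran from 52 to 34 bases before it. The last CCAAT box of each gene is the first half-site of that element, so the 2 motifs overlap there. ASNS and CHAC1 hold 1 match each to the amino acid response element core, which 3.19% of the stretches hold: TGATGAAA from 68 to 61 bases before the ASNS start, and TTGCATCA, on the opposite strand, from 209 to 202 bases before that of CHAC1. A CCAAT box was found in 4 of the 7 genes (DDIT3, CHAC1, HSPA5 and XBP1) and in 33.0% of all stretches. The CCACG part of the ER stress element, taken alone, was found in 5 of the 7 (not DDIT3 and ASNS) and in 33.3% of all. Its matches outside the full element are not in capitals above. The unfolded protein response element TGACGTGG, in 0.667% of all, was found in 0 of the 7, and the TATA box TATAAA, in 11.1% of all, in ATF4. The guanine and cytosine content ran from 58.4% in ATF4 to 78.8% in TRIB3, above the median stretch of 58.0% in all 7. A match describes letters in this stretch and not a bound site.

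All 7 starts had H3K9ac peaks within the window in each of the 4 libraries. How often other windows or tiles had this was not counted, so it is not shown to be particular to the 7 genes. In the 4 lists as deposited, both treated libraries covered more of the window than both untreated libraries at 7 of 7 starts, and the measure is the number of bases inside H3K9ac peaks. The same order held in 86.1% of 11387 windows of equal width centred on reproducible regions called in both conditions, and the opposite order in 0.536%. The count at the stress genes is therefore close to that at acetylated places in general. Among 130061 tiles of 10 kb that held any peak, 15.6% had this order and 6.62% the opposite. The treated libraries had a median of 4494 and 3750 bp covered over the 7 windows, against 2554 and 1483 bp in the untreated libraries. The other acetylated windows had medians of 3060 and 2388 bp in treated cells, against 1779 and 1305 bp in untreated cells.

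The size of the lists differed between libraries. The treated lists held 79538 and 69151 peaks covering 52.1 and 37.8 Mb, replicates 1 and 2 in that order here and below, and the untreated lists 120630 and 59724 peaks covering 48.3 and 22.8 Mb. Replicate 1 covered more than replicate 2 in both conditions, and it did so at each of the 7 starts. The lists give positions and a score, not reads, so the depth behind a peak is unknown, and how far depth sets the covered length was not tested.

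**Figure D1:**
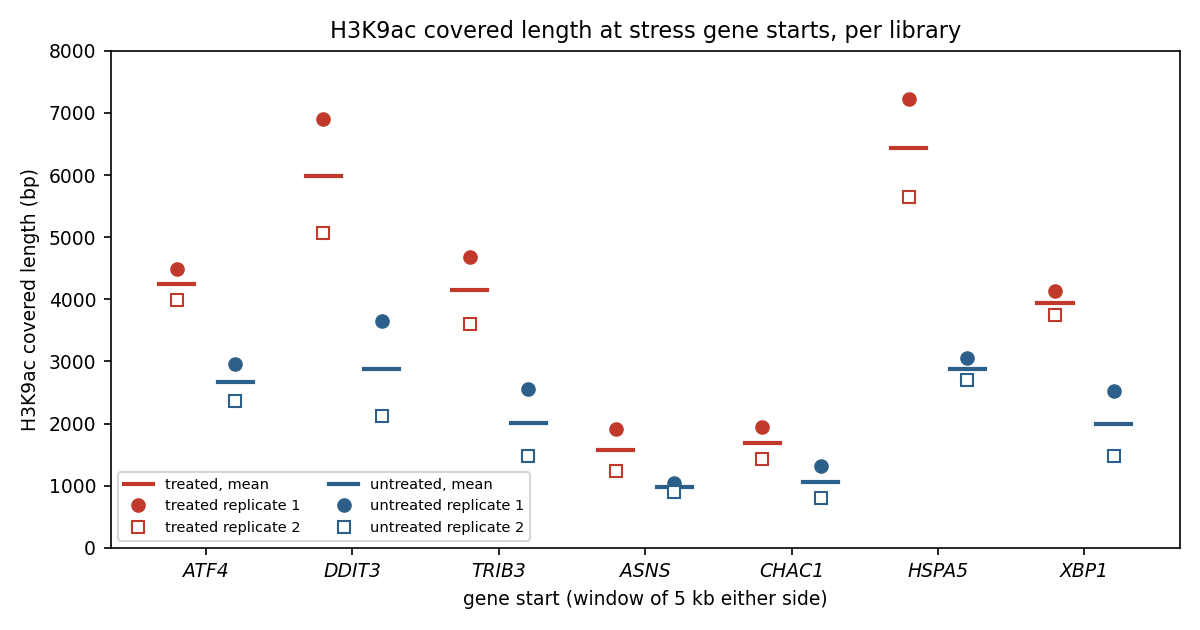
H3K9ac covered length, in bp on the vertical axis, in the window of 5 kb either side of each gene start; points are single libraries and bars the mean of 2 libraries per condition. In the lists as deposited both treated libraries lie above both untreated libraries at all 7 starts. Coverage in treated cells is least at ASNS and most at HSPA5. In the limma fit after quantile normalization the differences of ATF4, ASNS and CHAC1 turn negative, by less than their SE.

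ATF4, the transcription factor at the centre of the integrated stress response, had 4494 and 3988 bp covered in treated cells, against 2958 and 2371 bp in untreated cells. The means were 4241 ± 358 bp and 2664.5 ± 415 bp (SD, n = 2 each), a ratio of 1.59. In each treated library a single peak ran across the start, from 1900 bp before it to 2593 bp after it in replicate 1 and from 1672 bp before it to 1845 bp after it in replicate 2. In each untreated library the same stretch was split into separate peaks, and a break lay just upstream of the start, between 475 and 313 bp before it in replicate 1 and between 507 and 305 bp before it in replicate 2. The start itself was covered in all 4 libraries, which held for ATF4 alone among the 7 genes. The 3′ end of MIEF1 neighbours ATF4 on its upstream side in RefSeq.

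DDIT3, which encodes the pro-apoptotic factor CHOP, had 6902 and 5065 bp covered in treated cells, against 3645 and 2126 bp in untreated cells. The means were 5983.5 ± 1299 bp and 2885.5 ± 1074 bp (SD, n = 2 each), a ratio of 2.07. The window held 2 blocks of acetylation on either side of an uncovered stretch. The downstream block began within 36 bp of the start in all 4 libraries. It reached 2949 and 1491 bp into the gene without a break in treated cells, against 1093 and 1108 bp in untreated cells. The upstream block was a single peak of 3938 and 2756 bp in treated cells, with a separate peak of 114 bp farther upstream in replicate 2. The widest upstream peak in untreated cells had 1254 and 696 bp. MBD6 is the next gene on the upstream side in RefSeq and is read away from DDIT3, so the upstream block cannot be assigned to either gene.

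TRIB3, a pseudokinase that is a target of ATF4 and DDIT3, had 4683 and 3609 bp covered in treated cells, against 2554 and 1471 bp in untreated cells. The means were 4146 ± 759 bp and 2012.5 ± 766 bp (SD, n = 2 each), a ratio of 2.06. The peak over the TRIB3 start ended 2920 and 2538 bp downstream in treated cells. In untreated replicate 1 it ended 1758 bp downstream, and in untreated replicate 2 the start lay in a gap of 340 bp. Beyond the window, peaks of 934 and 671 bp lay about 8 kb upstream of TRIB3 in treated cells, at 8514 to 7581 and 8621 to 7951 bp before the start. A narrower peak of 385 bp lay there in untreated replicate 1, and no peak in untreated replicate 2.

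ASNS, the enzyme that makes asparagine and a target of ATF4, had the least coverage of the 7 in treated cells. It had 1913 and 1229 bp covered in treated cells, against 1049 and 897 bp in untreated cells. The means were 1571 ± 484 bp and 973 ± 107 bp (SD, n = 2 each), a ratio of 1.61. Nearly all of it lay downstream of the start. The upstream side of ASNS held 166 and 0 bp in treated cells and 0 and 0 bp in untreated cells. The stretch from 202 bp before to 9 bp after the ASNS start was free of peaks in all 4 libraries.

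CHAC1, which breaks down glutathione and is a target of the ATF4 pathway, had 1948 and 1437 bp covered in treated cells, against 1310 and 805 bp in untreated cells. The means were 1692.5 ± 361 bp and 1057.5 ± 357 bp (SD, n = 2 each), a ratio of 1.60. A peak stood on each side of the start in all 4 libraries, and in treated replicate 2 the downstream one began 34 bp before it. These downstream peaks of CHAC1 had 884 and 482 bp in treated cells, against 463 and 260 bp in untreated cells. A further treated peak of 259 bp lay near 3 kb downstream in replicate 2 only. Without it CHAC1 would overlap between conditions: within 2 kb of the start its coverage was 1948 and 1178 bp in treated cells, against 1310 and 805 bp in untreated cells.

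HSPA5, the main chaperone of the ER lumen, had the widest acetylation of the 7 in treated cells. It had 7230 and 5646 bp covered in treated cells, against 3050 and 2709 bp in untreated cells. The means were 6438 ± 1120 bp and 2879.5 ± 241 bp (SD, n = 2 each), a ratio of 2.24. In treated cells the peak that began just after the start reached 6298 and 3440 bp into the gene, against 1328 and 1808 bp in untreated cells. The start itself was free of peaks in all 4 libraries, from 155 bp before it to 6 bp after it. The full ER stress element printed above lies close before the RefSeq start. That start was not aligned with the hg19 position, so whether the element lies within this gap was not tested. HSPA5-DT, a long non-coding RNA, is the next gene on the upstream side in RefSeq and is read away from HSPA5, so the upstream peaks of 1781 and 1754 bp in treated cells cannot be assigned to either gene; the widest upstream peak had 675 and 817 bp in untreated cells.

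XBP1, the transcription factor activated by IRE1, had 4128 and 3750 bp covered in treated cells, against 2518 and 1483 bp in untreated cells. The means were 3939 ± 267 bp and 2000.5 ± 732 bp (SD, n = 2 each), a ratio of 1.97. A single peak ran over the XBP1 start in both treated libraries, from 1085 bp before it to 2654 bp after it in replicate 1 and from 1100 bp before it to 2435 bp after it in replicate 2. In untreated replicate 1 it ran from 895 bp before to 1119 bp after the start. In untreated replicate 2 the start lay in a gap that spanned 264 bp before it to 4 bp after it.

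**Figure D2:**
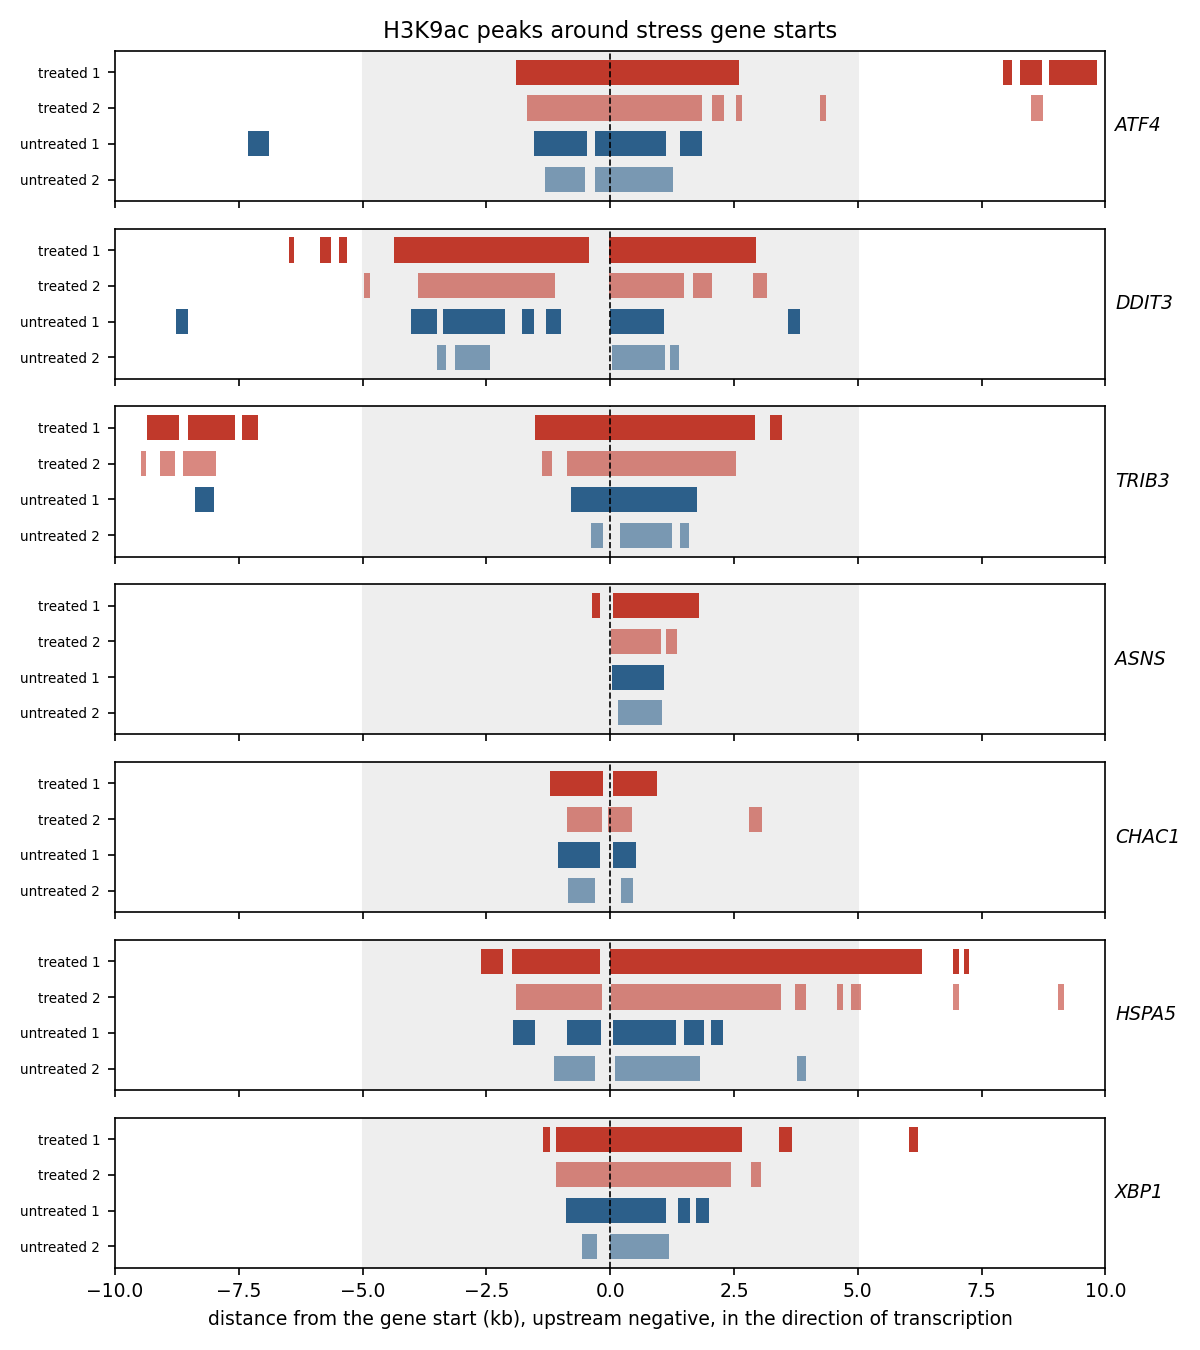
H3K9ac peaks of each library as horizontal bars, by distance from the gene start in kb, with upstream to the left in the direction of transcription and the window of 5 kb either side shaded. Single treated peaks cross the starts of ATF4, TRIB3 and XBP1, while HSPA5 and ASNS keep an uncovered stretch at the start in all 4 libraries.

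Peaks in treated cells covered most of the bases that peaks in untreated cells covered. Whether the added bases adjoin those peaks was not measured. Of the 18180 bp that either untreated library covered in the 7 windows, 17269 bp (95.0%) were covered in both treated libraries. The share ran from 79.8% in CHAC1 to 100% in TRIB3 and XBP1. Bases that both treated libraries covered and no untreated library did summed to 6264 bp, of which HSPA5 held 2019 bp and CHAC1 held 32 bp. The reverse sum was 0 bp. These sums were not computed for the other acetylated windows, so they are not shown to be particular to the 7 genes. In 86.1% of those other windows both treated libraries covered more than both untreated libraries. That is an order of covered length and not a measure of overlap. The agreement of replicates within a window, as the Jaccard index of covered bases, was 0.467 in CHAC1 to 0.816 in ATF4 for treated libraries, against 0.462 in DDIT3 to 0.855 in ASNS for untreated libraries.

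Downstream of the start, both treated libraries covered more than both untreated libraries at 7 of 7 genes, and upstream at 5 of 7. On 1 side of the centre of the other acetylated windows, both treated libraries covered more on 77.6% of 22774 sides and less on 0.707%. Those sides were taken without regard to the direction of transcription. ASNS and CHAC1 overlapped on the upstream side, where CHAC1 had 1064 and 730 bp in treated cells, against 847 and 545 bp in untreated cells. HSPA5 had the largest downstream coverage, 4994 and 3892 bp in treated cells, against 1930 and 1892 bp in untreated cells. DDIT3 and CHAC1 had more coverage upstream than downstream in both treated libraries, and DDIT3 had 3952 and 2896 bp upstream in treated cells, against 2313 and 871 bp in untreated cells. Summed over the 7 windows, the upstream side held 38.6% and 37.3% of the covered bases in treated cells, against 43.1% and 32.7% in untreated cells, so this split differed more between untreated replicates than between conditions.

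**Figure D3:**
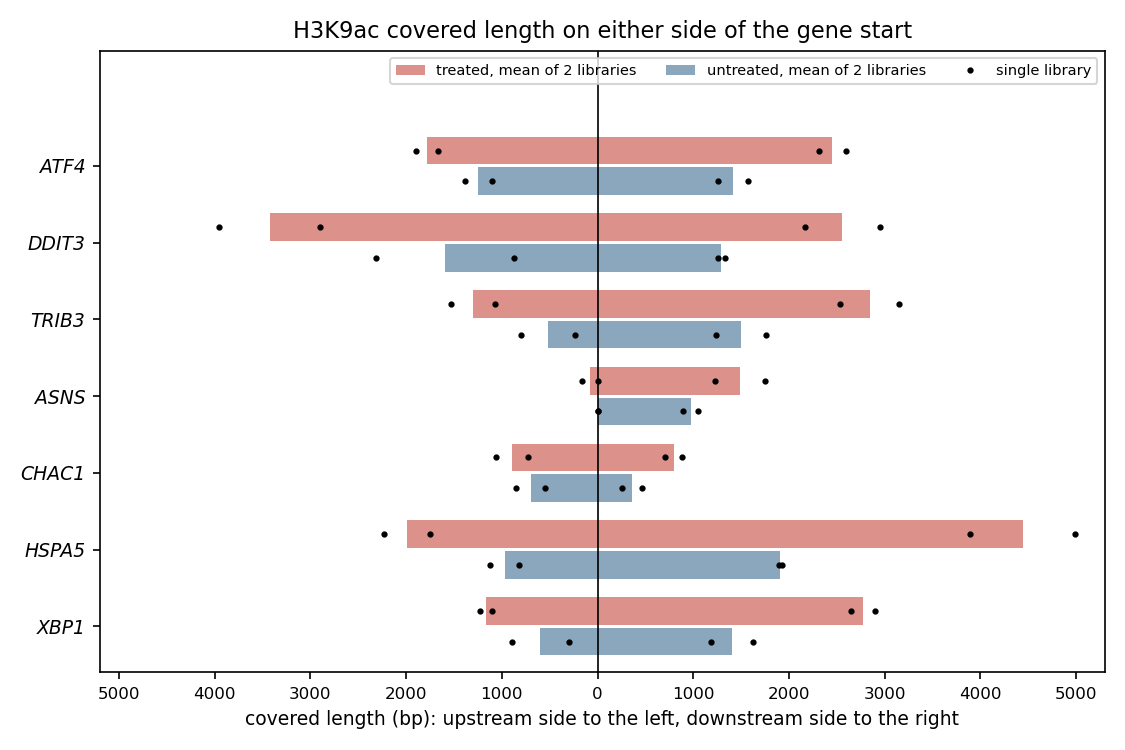
H3K9ac covered length in bp on the upstream side (left) and the downstream side (right) of each start; bars are means of 2 libraries and points single libraries. In the lists as deposited the treated points lie beyond the untreated points on the downstream side of all 7 genes. This order was found on 77.6% of the sides of other acetylated windows. Over the whole window, the differences of ATF4, ASNS and CHAC1 turn negative, by less than their SE, in the limma fit after quantile normalization.

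The longest unbroken peak of the window was longer in both treated than in both untreated libraries at 5 of 7 starts, against 87.8% of the other acetylated windows (0.553% had the opposite order). ASNS and CHAC1 were the exceptions. ASNS had longest peaks of 1747 and 1017 bp in treated cells, against 1049 and 897 bp in untreated cells, and CHAC1 had 1064 and 696 bp, against 847 and 545 bp. The number of separate peaks in the window was higher in both treated libraries at 1 of 7 starts, ASNS, with 2 and 2 peaks in treated cells, against 1 and 1 in untreated cells. The ranges overlapped at the other 6, and of the other acetylated windows 17.1% had more peaks in both treated libraries and 9.09% fewer.

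The limma fit used the arcsine square root of the covered share of all 11394 windows, the 7 included. Benjamini-Hochberg adjustment ran over all of them. It draws the spread between replicates mostly from all windows of like coverage, so an SE below is not that gene's own spread. A shift of a whole library recurs in its windows, and pooling them does not replicate it. The adjusted p-values can therefore overstate the evidence. Coverage rose at HSPA5, DDIT3, TRIB3 and XBP1, which stayed positive but lost the call after quantile normalization, and 4 of 7 genes were thus called higher and 0 lower. The XBP1 call also depended on the window width, with an adjusted p of 0.065 within 2 kb and 0.0624 within 10 kb of the start. Of the other windows, 33.6% were called higher and 0.325% lower. The difference, treated minus untreated, was 0.367 at HSPA5 (SE 0.104, adjusted p = 0.00613), 0.322 at DDIT3 (SE 0.100, adjusted p = 0.0124), 0.237 at TRIB3 (SE 0.083, adjusted p = 0.023) and 0.218 at XBP1 (SE 0.081, adjusted p = 0.0319). ATF4 did not pass, at 0.167 (SE 0.088, adjusted p = 0.104), nor did CHAC1 at 0.094 (SE 0.064, adjusted p = 0.19) or ASNS at 0.088 (SE 0.063, adjusted p = 0.211). The median difference over the 7 was 0.218, and that over the other windows was 0.147, where 98.7% were positive. When the 7 windows were fitted with the tiles of 10 kb instead, of which limma called 0.568% higher and 0.00538% lower, 0 of the 7 genes were called, with adjusted p-values of 0.0651 at HSPA5 to 0.549 at ASNS and CHAC1; 5 of the 7, and 9.09% of the tiles, had an unadjusted p under 0.05.

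The calls depended on which libraries were kept and on the general shift. Leaving out a library leaves 1 in its condition, which limma then assumes to vary like the pair of the other condition. Without treated replicate 1, untreated replicate 1 or untreated replicate 2, 0 of the 7 genes were called by limma, with lowest adjusted p-values of 0.148, 0.0707 and 0.307, and the called share of the other windows was 0.571%, 15.9% and 0.826%. In those fits 4, 4 and 1 of the 7 genes had an unadjusted p under 0.05, beside 17.2%, 42.6% and 16.1% of the other windows. Without treated replicate 2, the 4 genes were called with 41.9% of the other windows, at a lowest adjusted p of 0.000177. Leaving out 1 library at a time gave differences of 0.284 to 0.45 for HSPA5 and 0.228 to 0.417 for DDIT3. For TRIB3 they were 0.169 to 0.305 and for XBP1 0.153 to 0.283. Their sign carries no weight, since both treated libraries lay above both untreated libraries at these genes. Of the other windows, 93.5% to 99.3% were positive in these fits. Quantile normalization, which gives all 4 libraries the same distribution over the windows, moved the median difference of the other windows from 0.147 to -0.004. Relative to that shift HSPA5 remained at 0.133 (limma adjusted p = 0.231), DDIT3 at 0.099, TRIB3 at 0.062 and XBP1 at 0.048. ATF4, ASNS and CHAC1 turned to -0.025 (SE 0.044), -0.035 (SE 0.041) and -0.031 (SE 0.039), each smaller in size than its SE. Of the other windows, 47% were positive after quantile normalization. In that fit limma called 0 of the 7 genes, 1 of them (HSPA5) and 14.3% of the other windows had an unadjusted p under 0.05, and the other windows split into 92 higher and 52 lower calls, where the fit without it gave 3824 and 37.

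The other acetylated windows centre on regions called in both conditions and not on gene starts, so the shares below are not ranks among gene starts. In bp, the difference between condition means at HSPA5, 3558.5 bp, exceeded that of 99.0% of the other acetylated windows. DDIT3, with 3098 bp, exceeded 97.6% of them. Of the DDIT3 difference, 1832 bp lay on the upstream side, whose block cannot be assigned to DDIT3 or MBD6. Of the HSPA5 difference, 1026.5 bp lay on the upstream side, whose peaks cannot be assigned to HSPA5 or HSPA5-DT. TRIB3 with 2133.5 bp, XBP1 with 1938.5 bp and ATF4 with 1576.5 bp exceeded 87.4%, 82.9% and 71.5%. CHAC1 with 635 bp and ASNS with 598 bp exceeded 18.7% and 17.0%. As a ratio, HSPA5 exceeded 82.2% of the other windows, DDIT3 exceeded 75.2%, and ATF4, with the lowest of the 7, exceeded 35.7%. The median ratio was 1.97 over the 7 and 1.74 over the other windows. In untreated cells the coverage of HSPA5 exceeded that of 88.7% and 93.0% of the other windows in replicates 1 and 2, that of DDIT3 exceeded 94.7% and 83.8%, and that of ATF4 exceeded 87.6% and 88.7%.

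**Figure D4:**
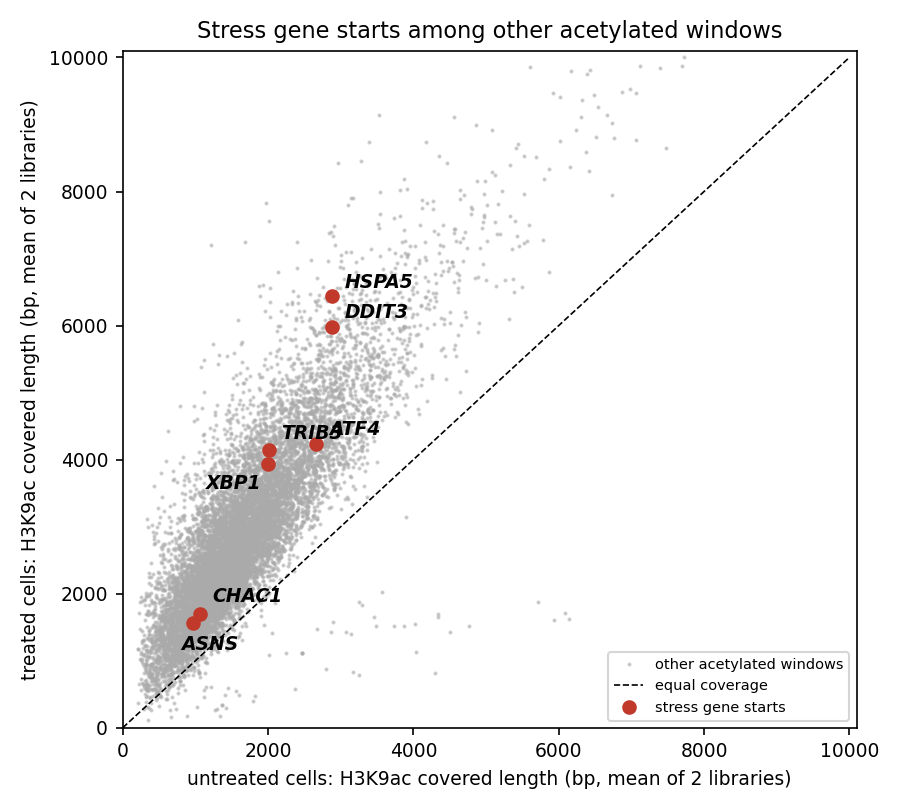
Mean H3K9ac covered length in treated cells (vertical axis, bp) against that in untreated cells (horizontal axis, bp) for 11387 acetylated windows in grey and the 7 stress gene starts in red, each a mean of 2 libraries; the dashed line marks equal coverage. The 7 starts lie above the line and within the cloud of other windows, with HSPA5 and DDIT3 at its upper side. The line takes no account of the general shift. Relative to that shift ATF4, ASNS and CHAC1 turn negative in the limma fit, by less than their SE.

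By the authors' score, used here only as a rank within each list, the strongest peaks belonged to TRIB3, XBP1 and HSPA5 in 3 of the 4 lists, and to XBP1, TRIB3 and DDIT3 in that of untreated replicate 2. The best peak in the TRIB3 window ranked 83 of 79538 and 119 of 69151 in the treated lists, and 270 of 120630 and 1727 of 59724 in the untreated lists. That of XBP1 ranked 1105 and 265 in the treated lists, and 165 and 1086 in the untreated lists. HSPA5 ranked 232 and 770 in the treated lists, and 628 and 3773 in the untreated lists. The best peaks of ASNS and CHAC1 were the weakest of the 7 in the treated lists, within the top 10.1% and 13.1% for ASNS and the top 14.3% and 12.4% for CHAC1. The lists differ in length and their scores have no stated common scale, so ranks cannot be compared between conditions.

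The reproducible sets, which the authors made from both libraries of a condition, held a region in the window at 7 of 7 starts in treated cells and at 6 of 7 in untreated cells. Of the 21916 merged regions of the series, 95.3% held a treated and 56.6% an untreated region. Those merged regions were built from the sets themselves and are not windows at gene starts. Their shares are therefore not a like measure for the counts at the 7 starts. CHAC1 lacked one in untreated cells although both untreated libraries had peaks on either side of its start. Its treated regions spanned 1064 bp (41244427 to 41245490 on chromosome 15) and 984 bp (41245602 to 41246585), with −log10 discovery rates of 5.37 and 2.81. HSPA5 had regions of 6292 and 1829 bp in treated cells, 127997368 to 128003659 and 128003822 to 128005650 on chromosome 9, against 1836 and 943 bp in untreated cells. ATF4 had 1 region of 4557 bp in treated cells, against 2 regions of 1071 and 1576 bp in untreated cells. The XBP1 region, 29193906 to 29197660 on chromosome 22, ranked within the top 2.76% of the treated set with 3755 bp, and that of 2085 bp within the top 6.66% of the untreated set. Over the 7 windows the treated set had 10 regions with a summed width of 31842 bp and the untreated set 9 regions with 14104 bp, a ratio of 2.26. The whole sets covered 39.3 Mb in treated cells and 17.9 Mb in untreated cells, a ratio of 2.20. Each condition has 1 such set, so these widths have no replicate error.

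H3K9me2 was not called at any of the 7 starts. The islands covered 0 bp of the window in both treated and both untreated libraries at 7 of 7 genes. Of the other acetylated windows 2.39% met an island in at least 1 library, and of 303421 tiles along 23 chromosomes 21.2% did. ASNS was the nearest to one, with an island 112.9 to 124.4 kb away across the 4 libraries. The nearest island was 169.3 to 1159.2 kb from TRIB3 and 198.2 to 890.8 kb from HSPA5. It was more than 10 Mb away from the other 4 genes, among them ATF4 and XBP1 on chromosome 22, which carried 1 to 3 islands in all per library. The lists hold only islands above the authors' score limit, so weaker H3K9me2 at these genes would not be seen.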

How the data were processed

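The authors deposited interval lists on hg19 without headers. Per the submitters' processing notes, Trimmomatic 0.32, BWA 0.7.5, Picard, MACS2 and SICER were used; which tool made which list, and with what settings is not given in the sources used here, nor how the 4 inputs served, which were not analysed here. Per the labels' protocols, chromatin was crosslinked, sheared and precipitated. Each H3K9ac peak and each H3K9me2 island has a score that the authors deposited, without a stated scale. The reproducible sets carry a deposited −log10 value, taken for that of the irreproducible discovery rate since it begins at 1.30, where the rate would be 0.05. Starts are counted from 0 in the files and from 1 here, and island ends, which name the last base of a 500 bp grid, were extended by 1 bp.

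Covered bases were counted in Python 3.11.15 with numpy 2.4.6 and pandas 2.3.3, in windows of 10001 bp. The comparison windows centre on the 11387 merged regions that both reproducible sets share, some of which overlap each other and the 7 windows. limma 3.58.1 in R 4.3.3 was fitted with a mean-variance trend to 2 treated and 2 untreated libraries, and windows without coverage in all 4 were left out. With 2 libraries against 2, an exact permutation test allows no p below 0.333, so none is given for single genes. The counting code was tested. How often limma calls a window wrongly at the spread of these libraries was not tested. Gene strands, neighbours and promoters come from RefSeq tables on GRCh38.p14, in which all 7 symbols matched; the first listed start was taken and no position was carried between builds. The planned count over other stress genes was not run, since no other hg19 start was used. No label ties a replicate number to a batch or day. The genes and lists were chosen with earlier results of these data known, and all 7 genes are named by rule. Alternatives were the window width, list length, comparison windows, transformation, normalization, a replicate block and leaving out each library.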

Additional observations from a re-analysis of the deposited data

How the results depend on the processing

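The order at the starts, both treated above both untreated libraries in covered length, held for 7 genes with windows of 10 kb either side, and with equal list lengths. Leaving out a library cannot undo this order, so those counts of 7 carry no weight. It held for 6 with windows of 2 kb either side (not CHAC1) and for 5 with the 20000 top peaks of each list (not ASNS and CHAC1). The number of windows that limma called higher, 3824, became 2017 with windows of 10 kb either side, 6422 with equal list lengths, 739 over tiles of 10 kb, 92 after quantile normalization and 8520 with a replicate block, and ran from 65 to 4767 without 1 library each. The number called lower, 37, became 483 over all merged regions and 7 over tiles, and ran from 0 to 37 without 1 library each. Of the 7 genes, 4 were called higher, which became 3 with windows of 10 kb either side (not XBP1) and stayed 4 with windows of 2 kb either side, where ATF4 (adjusted p = 0.045) was called and XBP1 was not. It became 0 over tiles, 0 after quantile normalization, and 0 to 4 without 1 library each. With the replicate block, 5 were called, the fifth being ATF4. Replicate differences correlated at -0.064 over the windows between conditions, and no label pairs the samples. ATF4, ASNS and CHAC1 turned negative after quantile normalization, at -0.025, -0.035 and -0.031, each smaller in size than its SE. The cause was not tested. H3K9me2 was at 0 of 7 with windows of 10 kb either side too; the other alternatives could only give 0. Where a reproducible region had to hold the start itself, 5 treated and 4 untreated starts had one. The share among other gene starts was not counted. Leaving out windows without coverage removed none. Read depth is unknown, which limits what covered length can show.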
